A study of Mus musculus with 2 samples.

Results

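Mitotic keratinocytes of mouse dorsal skin were chosen by a rule on transcript counts. Each count is a UMI, a unique molecular identifier that tags 1 captured RNA molecule. Barcodes with 500 UMIs and 300 genes or more, and with no more than 20% of UMIs from mitochondrial genes, entered the choice. A member also needed at least 0.5% of its UMIs from the basal keratins Krt5 and Krt14, and at least 1 UMI of 4 or more of 8 mitotic markers. The markers were Cenpf, Ccnb1, Cdc20, Aspm, Ube2c, Hmmr, Cenpe and Ccnb2. The rule found 3782 mitotic keratinocytes among 13863 keratinocytes and 19468 kept cells. They were 1960 cells of the Chrna5 knockout library and 1822 cells of the wild-type (WT) library.

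The knockout mice were Chrna5-/-, and the mice they were set against were WT. Both were female, aged 6 to 8 weeks, carried the C57BL/6 background and received vaseline, the base of an ointment, with skin taken on day 7. Collagenase freed the cells, SytoxBlue-negative (live) ones were sorted, and 1 library was made per genotype. The protocols name C57BL/6N for breeding and C57BL/6J for extraction, and the extraction text speaks of imiquimod, so the treatment is taken from the sample labels. How many mice went into a library, and which stretch of Chrna5 was deleted, is not stated in the labels. There is no replicate check, so every difference is between these 2 libraries, and all intervals in brackets are 95% intervals for counting error only.

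In the epidermis, cell division is largely a task of the basal layer, which rests on the basement membrane and feeds the layers above. A dividing cell copies its DNA in S phase, builds up the mitotic proteins in G2, and then enters mitosis. Cyclin B with Cdk1 drives entry, kinetochores tie chromosomes to the spindle, and the anaphase-promoting complex (APC/C) with Cdc20 triggers separation. Many G2 and mitosis genes carry a CHR element in the promoter, read by the DREAM and B-MYB-FOXM1 complexes, often near CCAAT boxes bound by NF-Y. Chrna5 encodes the alpha 5 subunit of nicotinic acetylcholine receptors, which respond to acetylcholine and nicotine.

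The libraries held 9696 barcodes and 125458721 UMIs for the knockout, against 10741 barcodes and 139673385 UMIs for WT. They shared 34 cell barcodes, carried by 6 knockout and 8 WT mitotic keratinocytes, and 0 barcodes were mitotic in both libraries. Mitotic keratinocytes held a median of 21364 UMIs in the knockout and 21521.5 in WT, and keratinocytes without any of the 8 markers held 12273 and 12560. Chrna5 gave 3 UMIs over all knockout barcodes and 13 over all WT barcodes, with 1 UMI in the mitotic keratinocytes of each library. A 3′ tag may lie outside the deleted stretch, so these counts do not check the genotype. A Scrublet doublet score of at least 0.25 was found in 10.8% of knockout and 10.5% of WT mitotic keratinocytes, and in 3.09% and 3.51% of those without a marker.

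Mitotic keratinocytes made up 29.0% (27.9 to 30.1) of knockout keratinocytes, against 25.6% (24.6 to 26.7) of WT keratinocytes. The ratio of these shares was 1.13 (1.07 to 1.2). Mitotic here means mitotic by the rule, which does not separate cells in mitosis from cells in G2 or S phase. The excess lay in the cells with all 8 markers, 1180 knockout and 884 WT cells, or 17.5% and 12.4% of keratinocytes, a ratio of 1.41 (1.30 to 1.52). Cells with 4 to 7 markers made up 11.6% of knockout and 13.2% of WT keratinocytes, and at each of these numbers the knockout share was the smaller, for example 1.94% of knockout and 2.49% of WT keratinocytes at 4 markers. Keratinocytes without any marker were 50.4% of the knockout and 52.1% of WT. Few cells sat next to the threshold, with 154 knockout and 173 WT cells at 3 markers, and 131 and 177 cells at 4.

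Detection of a marker depends on depth, so every cell was also thinned to 2000 UMIs. Thinning left out 246 knockout and 281 WT keratinocytes as shallower. The rule then found 792 of 6515 knockout keratinocytes, or 12.2% (11.4 to 13.0), and 493 of 6804 WT keratinocytes, or 7.25% (6.64 to 7.89). The ratio was 1.68 (1.51 to 1.87). Thinning kept 40.4% of the knockout and 27.0% of the WT mitotic keratinocytes. Cenpf then averaged 1.02 UMIs per knockout and 0.613 per WT mitotic keratinocyte, so detection hung on about 1 UMI and the larger ratio is not read as a change.

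**Figure D1:**
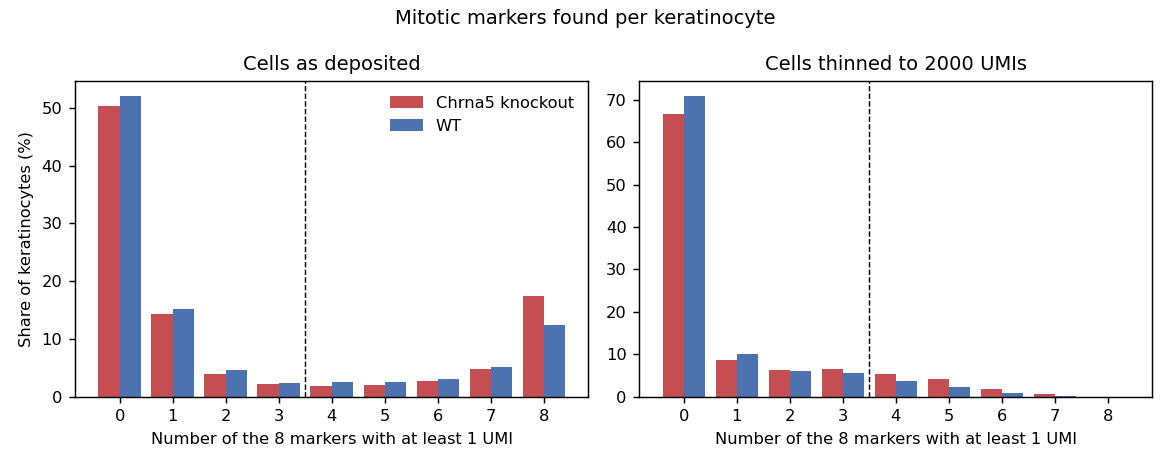
Share of keratinocytes (y axis, percent) by the number of the 8 markers with at least 1 UMI (x axis), as deposited on the left and after thinning to 2000 UMIs on the right, with knockout bars left of WT bars and a dashed line at the threshold of 4 markers. As deposited, both libraries show a peak at 0 markers and another at all 8, where the knockout reaches 17.5% and WT 12.4%; after thinning, few cells in either library hold 6 or more.

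In 5 of 6 ranges of depth the knockout share of mitotic keratinocytes was the higher. From 500 to 5000 UMIs, 9.86% (7.66 to 12.4) of knockout and 4.42% (2.91 to 6.41) of WT keratinocytes were mitotic. From 5000 to 10000 UMIs the shares were 11.3% (9.38 to 13.5) in the knockout and 7.45% (5.92 to 9.24) in WT. From 15000 to 20000 UMIs they were 31.1% (28.7 to 33.5) in the knockout and 25.4% (23.3 to 27.5) in WT. These ranges have separate intervals. Between 20000 and 30000 UMIs, 63.5% (60.7 to 66.2) of knockout and 55.3% (52.6 to 58.0) of WT keratinocytes were mitotic by the rule, and above 30000 UMIs 80.5% (76.5 to 84.2) and 72.2% (67.8 to 76.3). The exception was the range from 10000 to 15000 UMIs, with 10.9% (9.56 to 12.3) in the knockout and 12.2% (10.8 to 13.7) in WT and overlapping intervals. Outside the keratinocytes, cells rich in fibroblast and dermal papilla genes held 4 or more markers in 0.781% (0.213 to 1.99) of 512 knockout and 2.72% (1.5 to 4.53) of 514 WT cells. Their median depths were 4966.5 and 6250.5 UMIs, and Cenpf gave a UMI in 2.54% of them in the knockout and 4.47% in WT.

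The 8 markers were each higher in knockout mitotic keratinocytes than in WT ones, in 2 sets of 4 that differed in size. Levels are given as CPM, counts per 1000000 of the summed UMIs of the mitotic keratinocytes, and ratios are knockout over WT. Since these genes chose the cells, the values describe the cells and support nothing. The wider set was led by Cenpf, a kinetochore and nuclear matrix protein that builds up in G2, with 513 CPM in the knockout and 333 CPM in WT, a ratio of 1.54 (1.51 to 1.58). Cenpe, a kinetochore motor that carries chromosomes to the spindle equator, had 225 CPM in the knockout and 148 CPM in WT (ratio 1.52). Aspm, a spindle pole protein, had 152 and 105 CPM in knockout and WT cells (ratio 1.45). Hmmr, a spindle protein that also binds hyaluronan, had 212 CPM in the knockout and 146 CPM in WT (ratio 1.44).

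The other 4 markers belong to the cyclin and APC/C machinery and lay closer together. They also have the shorter transcripts, with a longest one of 1531 bases for Ccnb2 up to 2489 for Ccnb1. In the wider set these lengths ran from 3892 bases for Hmmr to 11130 for Cenpf. Function and length cannot be told apart in these 2 sets. Ccnb1, cyclin B1, had 191 CPM in the knockout and 166 CPM in WT (ratio 1.15). Ube2c, the ubiquitin-conjugating enzyme of the APC/C, had 676 and 608 CPM in knockout and WT cells (ratio 1.11). Ccnb2, cyclin B2, had 189.9 CPM in the knockout and 173 CPM in WT (ratio 1.09). Cdc20, the activator of the APC/C at anaphase, had 232 CPM in the knockout and 219 CPM in WT, a ratio of 1.06 (1.03 to 1.09). Per cell, a mitotic keratinocyte held a median of 8 Cenpf UMIs in the knockout and 5 in WT, and 4 Cdc20 UMIs in each.

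**Figure D2:**
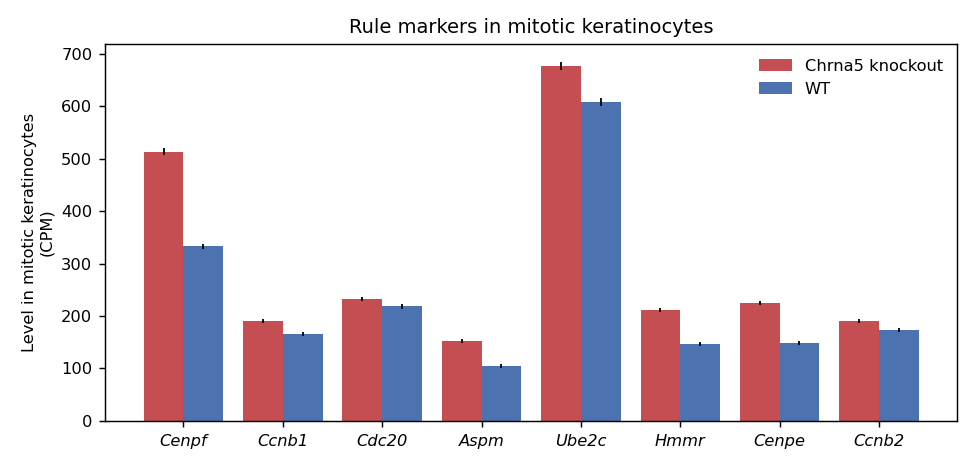
Level of each rule marker (y axis, CPM over the summed mitotic keratinocytes), knockout bars left of WT bars; error bars are 95% Poisson intervals of the counts. The gap between the libraries is widest in ratio for Cenpf (513 and 333 CPM) and Cenpe (225 and 148 CPM), and narrowest for Cdc20 (232 and 219 CPM).

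Because more knockout cells held all 8 markers, the same levels were taken apart in cells with all 8 and in cells with 4 to 7. Among cells with all 8, Cenpf had 639 CPM in the knockout and 467 CPM in WT, a ratio of 1.37 (1.34 to 1.40), and Cenpe, Hmmr and Aspm had ratios of 1.39, 1.33 and 1.28. Cdc20, Ube2c, Ccnb2 and Ccnb1 had ratios between 1.02 and 1.05 there. The range of 4 to 7 markers held 780 knockout and 938 WT cells, of which 327 and 363 had 7 markers. Among these cells Cenpf had 242 CPM in the knockout and 163 CPM in WT (ratio 1.48). Cdc20 had 133 CPM in the knockout and 149.6 CPM in WT, a ratio of 0.889 (0.838 to 0.943).

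Promoter sequences are shown for the 2 markers with the highest ratios, Cenpf and Cenpe, and the 2 with the lowest, Cdc20 and Ccnb2, to set the start regions of the 2 ends of the marker order side by side. Each window runs 5′ to 3′ on the gene's own strand from 150 bases before to 50 bases after the start given by RefSeq, on GRCm38.p6. Capitals mark TTTGAA (the CHR core), TTTAAA (a related word that is its own reverse complement) and CCAAT (the NF-Y box), searched on both strands. The windows are chr1:189688037-189688236 for Cenpf on the minus strand and chr3:135212413-135212612 for Cenpe on the plus strand. Those of Cdc20 and Ccnb2 are chr4:118437294-118437493 and chr9:70421505-70421704, both on the minus strand.
Cenpf: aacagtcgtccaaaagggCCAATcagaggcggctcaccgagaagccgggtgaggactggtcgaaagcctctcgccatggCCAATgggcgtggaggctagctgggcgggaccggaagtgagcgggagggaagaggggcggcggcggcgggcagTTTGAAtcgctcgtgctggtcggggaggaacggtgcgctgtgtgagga
Cenpe: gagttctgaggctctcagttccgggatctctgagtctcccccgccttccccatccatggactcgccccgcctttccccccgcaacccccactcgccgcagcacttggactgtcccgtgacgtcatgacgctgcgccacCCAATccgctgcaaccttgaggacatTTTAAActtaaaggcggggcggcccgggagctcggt
Cdc20: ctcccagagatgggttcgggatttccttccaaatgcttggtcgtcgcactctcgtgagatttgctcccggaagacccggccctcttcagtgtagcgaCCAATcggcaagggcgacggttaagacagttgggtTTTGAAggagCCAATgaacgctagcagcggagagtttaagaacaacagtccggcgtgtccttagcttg
Ccnb2: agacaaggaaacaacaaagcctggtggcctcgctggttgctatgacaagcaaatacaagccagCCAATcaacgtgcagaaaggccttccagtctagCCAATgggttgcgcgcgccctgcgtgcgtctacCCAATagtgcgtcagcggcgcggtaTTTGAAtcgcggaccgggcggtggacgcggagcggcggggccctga
In Cenpf the TTTGAA began at base 3 after the start, with CCAAT at bases -132 and -71, and in Ccnb2 it began at base 5, with CCAAT at -87, -54 and -21. In Cdc20 the TTTGAA began at base -18 and lay between CCAAT words at -53 and -8. In Cenpe no TTTGAA was found in this window, and TTTAAA began at base 15, downstream of a CCAAT at -12.

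Shares of windows with a word were taken over the full RefSeq windows of 300 bases, which start 250 bases before the gene's start and so reach further upstream than the printed stretches. Of the 8 markers, all 8 windows held CCAAT, 6 held TTTGAA, and the windows of Ccnb1 and Cenpe held TTTAAA but no TTTGAA. Among all 32851 such windows of RefSeq, 37.4% held CCAAT, 17.9% TTTGAA and 13.2% TTTAAA. For 92 matched mitosis genes outside the rule, 55 of 103 windows held TTTGAA (53.4%), 70 held CCAAT (68.0%) and 15 held TTTAAA (14.6%). For 30 matched DNA replication genes, 8.57% of 35 windows held TTTGAA and 60.0% held CCAAT. A match is a word in the sequence, not a bound site.

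A wider view came from 116 mitosis genes in 6 lists that the rule did not use, all of them measured, which takes 100 UMIs or more in the mitotic keratinocytes of the 2 libraries together. Of these, 103 had a ratio above 1, and the median log2 ratio was 0.20, against -0.016 over all 11032 measured genes. Past 1.5-fold, 2 of the 116 were higher in the knockout and 0 lower, where 1.95% of all measured genes were higher and 4.5% lower. The count is therefore near the background, and the shift is a small one spread over many genes. The median log2 ratio was 0.15 in cells with all 8 markers and 0.11 in cells with 4 to 7. In keratinocytes without a marker, 89 of the 116 genes were measured and their median log2 ratio was -0.15.

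Spindle and motor genes had the highest list median, a log2 ratio of 0.29, with 24 of 26 above 1. Kif20b, a kinesin of late mitosis and cytokinesis, had 106 CPM in the knockout and 68.1 CPM in WT, a ratio of 1.55 (1.48 to 1.63). Nusap1, a spindle microtubule protein, had 286 CPM in the knockout and 211 CPM in WT (ratio 1.36). The tubulin Tuba1b had 600.0 and 605 CPM in knockout and WT mitotic keratinocytes (ratio 0.992), and 76.2 and 101 CPM in marker-free ones. Kinetochore and checkpoint genes had 29 of 29 above 1 and a median log2 ratio of 0.24. Sgo2a, a shugoshin that protects centromere cohesion, had 57.0 CPM in the knockout and 37.3 CPM in WT, a ratio of 1.53 (1.43 to 1.63), while Cenph, an inner kinetochore subunit, had 52.5 and 51.5 CPM.

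Condensation and chromatin genes had 14 of 16 above 1 and a median log2 ratio of 0.23. Mki67, the coat protein of mitotic chromosomes, had 646 CPM in the knockout and 449.6 CPM in WT, a ratio of 1.44 (1.41 to 1.46). Top2a, which untangles sister chromatids, had 738 CPM in the knockout and 624 CPM in WT (ratio 1.18). Mitotic entry genes had a median of 0.19, from Mybl2, the B-MYB factor, at 9.94 CPM in the knockout and 11.9 in WT, to the kinase Aurka at 48.5 and 36.3 CPM. Cdk1, the kinase partner of cyclin B, had 283 CPM in the knockout and 251 CPM in WT.

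Passenger and cytokinesis genes had 16 of 16 above 1 and a median log2 ratio of 0.18, with Kif14, a kinesin of the midbody, at 34.9 CPM in the knockout and 25.2 CPM in WT. The APC/C and mitotic exit genes lay apart from the other lists, with 6 of 12 above 1 and a median of 0.0043. They were also the list least raised in mitotic over marker-free keratinocytes, with median log2 ratios of 0.97 in the knockout and 0.88 in WT. Of the 12 genes, 8 were higher there past 1.5-fold in both libraries. In the other mitosis lists these medians ran from 3.14 to 5.47. The part of this lower rise in the list's knockout over WT ratios was not tested. Cdc16, an APC/C subunit, had 24.4 CPM in the knockout and 27.0 CPM in WT. Fbxo5, the APC/C inhibitor, had 38.2 CPM in the knockout and 31.8 CPM in WT (ratio 1.2). Across the 8 markers and 116 genes, the 13 with a longest transcript of 6000 bases or more had a median log2 ratio of 0.33, and the 22 under 2000 bases 0.20. The 61 from 2000 to 4000 bases had 0.195, and the 28 from 4000 to 6000 bases 0.25. Over all measured genes the median was -0.014 at 6000 bases or more and 0.022 under 2000 bases. The part of transcript length in these ratios was not tested.

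Summed per cell, the 116 genes took a median of 2.28% of the UMIs of a knockout mitotic keratinocyte and 2.01% of a WT one, against 0.249% and 0.255% in keratinocytes without a marker. Cells picked by this sum in place of the 8 markers gave the same order at 1% and at 2% of UMIs. Most of them were already mitotic by the rule, 92.6% of knockout and 89.2% of WT cells at 1%. At 2% these shares were 97.8% and 96.3%, so the sum is not a separate check of the order. At 1% of UMIs or more there were 1938 knockout cells, 28.7% (27.6 to 29.8) of keratinocytes, and 1783 WT cells, 25.1% (24.1 to 26.1). At 2% or more the shares were 19.0% (18.1 to 19.9) in the knockout and 13.4% (12.6 to 14.2) in WT. At 0.5% or more they were 35% (33.8 to 36.1) and 34.3% (33.2 to 35.4) in knockout and WT, with overlapping intervals.

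Genes of DNA replication peaked in cells with an intermediate number of markers. The 39 replication genes, such as the MCM helicase and Pcna, summed to 447 CPM in knockout and 659 CPM in WT keratinocytes without a marker. They reached 3054 CPM at 6 markers in the knockout and 2821 CPM at 5 markers in WT, and stood at 1956 and 1787 CPM in cells with all 8. The 11 replication histone genes, which are made in S phase, peaked at 3399 CPM with 7 markers in the knockout and 3054 CPM with 6 markers in WT. In cells with all 8 markers they summed to 2187 CPM in the knockout and 2054 CPM in WT. Over all mitotic keratinocytes the histone genes summed to 2416 CPM in the knockout and 2354 CPM in WT. Marker-free keratinocytes had 182 and 210 CPM. The rule thus also takes in cells with transcripts of S phase. The 116 mitosis genes went on climbing with each further marker, to 24315 CPM in knockout and 22058 CPM in WT cells with all 8.

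**Figure D3:**
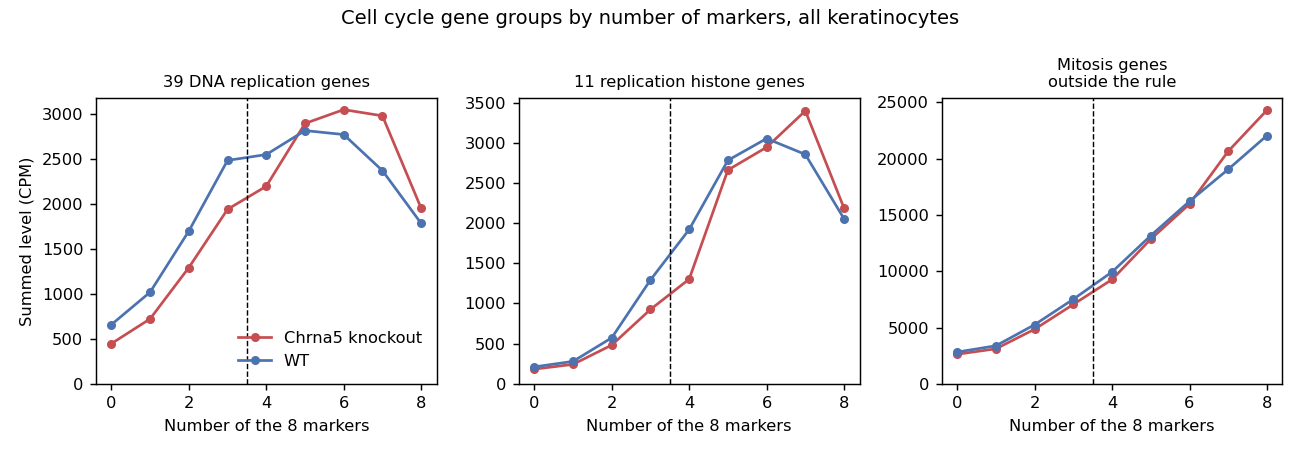
Summed level of 3 cell cycle gene groups (y axis, CPM) in all keratinocytes by the number of the 8 markers (x axis), with points and lines for the knockout and WT libraries and a dashed line at the threshold of 4. DNA replication and histone genes peak between 5 and 7 markers, while mitosis genes climb to 24315 CPM in the knockout and 22058 CPM in WT at 8 markers.

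The libraries differed in replication genes outside the mitotic keratinocytes more than within them. In mitotic keratinocytes 0 of 39 replication genes passed 1.5-fold in either direction, and the median log2 ratio was 0.11. Mcm5, a subunit of the replicative helicase, had 48.9 CPM in the knockout and 53.0 CPM in WT there (ratio 0.923). In keratinocytes without a marker, 16 of 36 measured replication genes were lower in the knockout by 1.5-fold or more and none higher, with a median log2 ratio of -0.57. The background there was 2.15% of 11145 genes higher and 6.19% lower. Mcm5 was the lowest of them, with a ratio of 0.407. The markers that divide the keratinocytes are detected together with replication genes, so the 2 sets of cells are not independent of the rule.

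Set against keratinocytes without a marker, mitotic keratinocytes held basal genes at similar levels and fewer transcripts of the spinous layer. This contrast is the one the rule used, so its values are a description. Past 1.5-fold in both libraries, 10.6% of 10962 measured genes were higher in mitotic keratinocytes and 5.71% lower. Of the 15 basal genes none was past that size in either direction. Of 14 spinous genes 13 were lower, and they summed to 4563 CPM in mitotic and 10909.5 CPM in marker-free keratinocytes of the knockout, and to 4379 and 9837 CPM in WT.
Outside the rule, 112 of 116 mitosis genes, 34 of 39 replication genes and 10 of 11 replication histones were higher in mitotic keratinocytes. Nusap1 had 286 CPM in mitotic and 2.00 CPM in marker-free keratinocytes of the knockout, and 211 and 1.44 CPM in WT. Iqgap3, a scaffold protein tied to proliferation, had 41.8 and 0.212 CPM in mitotic and marker-free knockout cells, and 46.1 and 0.444 CPM in WT. Kif20a, a kinesin of cytokinesis, had 54.4 and 0.447 CPM in the knockout, and 46.2 and 0.486 CPM in WT. Kif14, Hist1h2af, Kif2c, Depdc1a, Prr11, Mxd3 and Pif1 complete the 10 genes with the highest ratios. Marker-free keratinocytes gave few UMIs of these genes, for example 3 in the knockout and 4 in WT for Pif1, a DNA helicase that had 375 and 281 UMIs in the mitotic ones.

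A minority of mitotic keratinocytes carried the early differentiation keratins. Krt1 and Krt10 together took 0.5% or more of the UMIs in 5.82% (4.82 to 6.95) of knockout and 5.32% (4.34 to 6.46) of WT mitotic keratinocytes. In marker-free keratinocytes the shares were 19.4% (18.1 to 20.8) in the knockout and 15.7% (14.6 to 16.9) in WT. This class is a range of a continuous level, and 134 knockout and 91 WT mitotic keratinocytes lay between 0.25 and 1% of UMIs. Doublet scores of at least 0.25, found in 10.8% of knockout and 10.5% of WT mitotic keratinocytes, were not counted apart in this class. The part of doublets in it was not tested. Read the other way, 11.6% of the Krt1 and Krt10 keratinocytes of the knockout and 10.8% of those of WT were mitotic, against 32.0% and 27.8% of the remaining keratinocytes. All 8 markers stood lower in the Krt1 and Krt10 mitotic cells than in the other mitotic cells in both libraries. For Cenpf these levels were 411 and 522 CPM in the knockout, and 240.0 and 340.4 CPM in WT.

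Between the libraries, the wider differences in mitotic keratinocytes lay in gene groups outside the cell cycle. Of all 11032 measured genes, 215 were higher in the knockout by 1.5-fold or more and 496 lower. Of 22 interferon-response genes 13 were lower in the knockout and 1 higher, where 4.5% of all measured genes were lower, and the list had a median log2 ratio of -0.62. Ifi27l2a, an interferon-induced mitochondrial protein gene, had 49.6 CPM in the knockout and 348 CPM in WT, a ratio of 0.142 (0.136 to 0.149). Rtp4, another interferon-induced gene, had 7 UMIs in the knockout and 97 in WT, a ratio of 0.0681 (0.0267 to 0.146). Against this direction, Irf1, a transcription factor of the interferon response, had 146 CPM in the knockout and 93.0 CPM in WT (ratio 1.57).

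Among 16 genes of inflammatory basal keratinocytes 10 were lower in the knockout and 0 higher, with a median log2 ratio of -0.78. Of all measured genes 4.5% were lower and 1.95% higher. Ccl20, which draws CCR6-bearing lymphocytes and dendritic cells, had 41.6 CPM in the knockout and 131 CPM in WT (ratio 0.319). Tnip3, a dampener of NF-kB signalling, had 8.02 CPM in the knockout and 31.0 CPM in WT (ratio 0.259). Epgn, a ligand of the EGF receptor, had 162 CPM in the knockout and 423 CPM in WT (ratio 0.384). Tslp, an epithelial cytokine, had 54.2 CPM in the knockout and 41.9 CPM in WT (ratio 1.29).

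In a list of 10 stress keratin and Nppb genes 5 were lower and 2 higher, where 4.5% of all measured genes were lower and 1.95% higher. Nppb, which encodes the natriuretic peptide BNP, had 66.7 CPM in the knockout and 292 CPM in WT, a ratio of 0.228 (0.219 to 0.238). Krt16, a keratin of activated epidermis, had 292 CPM in the knockout and 493 CPM in WT (ratio 0.593). Krt6b was higher at 13.8 CPM in the knockout and 5.13 CPM in WT, but 1 knockout cell held 46.3% of its knockout UMIs. Stfa1, a stefin that inhibits cysteine proteases, had 249 CPM in the knockout and 138 CPM in WT (ratio 1.81).

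Genes of cholesterol synthesis and uptake followed the same direction, with 7 of 20 lower in the knockout, 0 higher and a median log2 ratio of -0.52. Mvd, a decarboxylase of the pathway with the lowest ratio among the 7, had 2.79 CPM in the knockout and 5.38 CPM in WT, a ratio of 0.519 (0.412 to 0.65). Of 9 upper follicle genes and 9 outer root sheath genes, 5 of each list were lower and 0 higher. For these 3 lists too, the shares over all measured genes were 4.5% lower and 1.95% higher. Krt17, a keratin of both compartments that stands in both lists, had 569.5 CPM in the knockout and 1217 CPM in WT (ratio 0.468). In the other direction Krt15, a keratin of basal and bulge cells, had 2659.7 CPM in the knockout and 2008 CPM in WT (ratio 1.32).

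**Figure D4:**
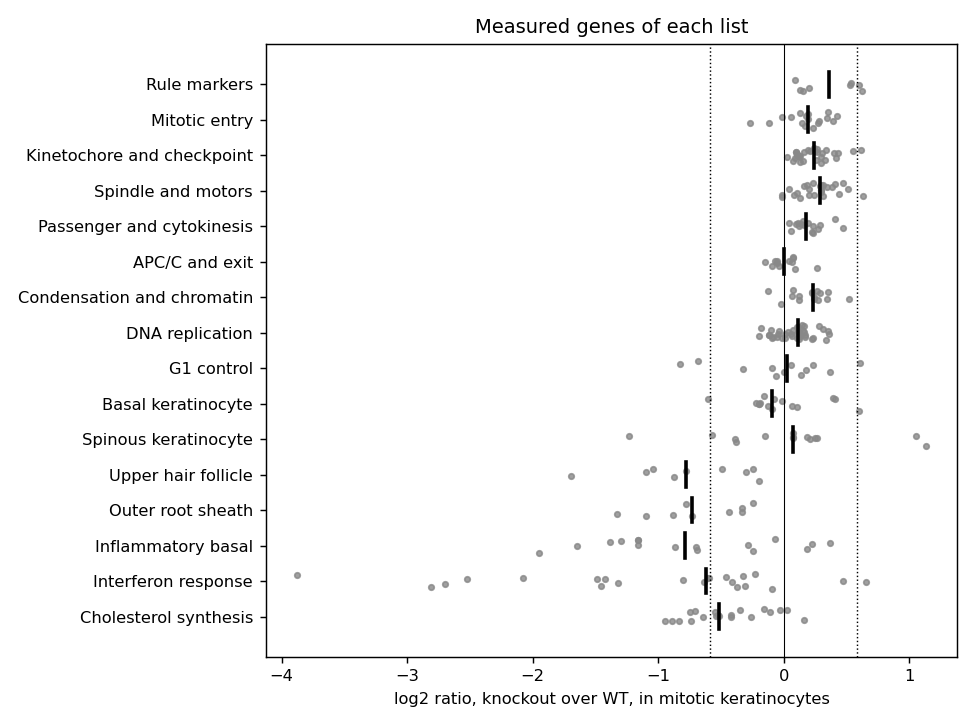
log2 ratio of knockout over WT in mitotic keratinocytes (x axis) for each measured gene (grey points) of 16 lists (rows), with black bars at the list medians and dotted lines at 1.5-fold. Of the 6 mitosis lists outside the rule, 5 lie just right of 0 with medians from 0.18 to 0.29 and the APC/C and exit list is centred at 0.0043, while the inflammatory, interferon, upper follicle, outer root sheath and cholesterol lists lie to the left with medians of -0.52 or lower.

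Control of the G1 phase showed opposite directions for its best-known members. Myc, a driver of growth and cell cycle entry, had 119 CPM in knockout mitotic keratinocytes and 78.1 CPM in WT ones, a ratio of 1.52 (1.46 to 1.59). Ccnd1, cyclin D1, had 45.0 CPM in the knockout and 79.6 CPM in WT, a ratio of 0.565 (0.534 to 0.598). Ccnd2, cyclin D2, had 89.0 CPM in the knockout and 143 CPM in WT (ratio 0.624). The other 9 of 12 measured G1 genes stayed within 1.5-fold. Among 13 inhibitors of cyclin-dependent kinases and quiescence genes, only Ccng2, cyclin G2, passed 1.5-fold, with 30.2 CPM in the knockout and 16.8 CPM in WT (ratio 1.80). Over all measured genes 1.95% were higher and 4.5% lower past that size.

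Outside the cell cycle, some lists had similar medians in mitotic and marker-free keratinocytes and others did not. The interferon list had a median log2 ratio of -0.65 in marker-free keratinocytes with 11 of 21 genes lower and 1 higher. The inflammatory list had -0.87 with 9 of 16 lower and 1 higher, and the cholesterol list -0.56 with 10 of 21 lower and none higher. Over all 11145 genes measured in marker-free keratinocytes, 2.15% were higher and 6.19% lower past 1.5-fold. Upper follicle genes had a median of -0.78 in mitotic and -1.10 in marker-free keratinocytes, and outer root sheath genes -0.73 and -0.96. Hair matrix and inner root sheath genes had -0.40 in mitotic and -0.14 in marker-free keratinocytes, and bulge and germ genes -0.39 and -0.43. Both kinds of cell come from the same pair of libraries, so these values stand side by side and are not independent. Of 89 mitosis genes measured in both, 83 had a higher ratio in mitotic than in marker-free keratinocytes. For DNA replication genes this held for 35 of 36, for interferon genes for 4 of 20, for inflammatory genes for 6 of 16, and over all 10751 genes measured in both for 5598. The 8 markers split the cells into these sets, and they are detected together with other cell cycle genes, so the counts for mitosis and replication genes describe the split and support nothing.

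**Figure D5:**
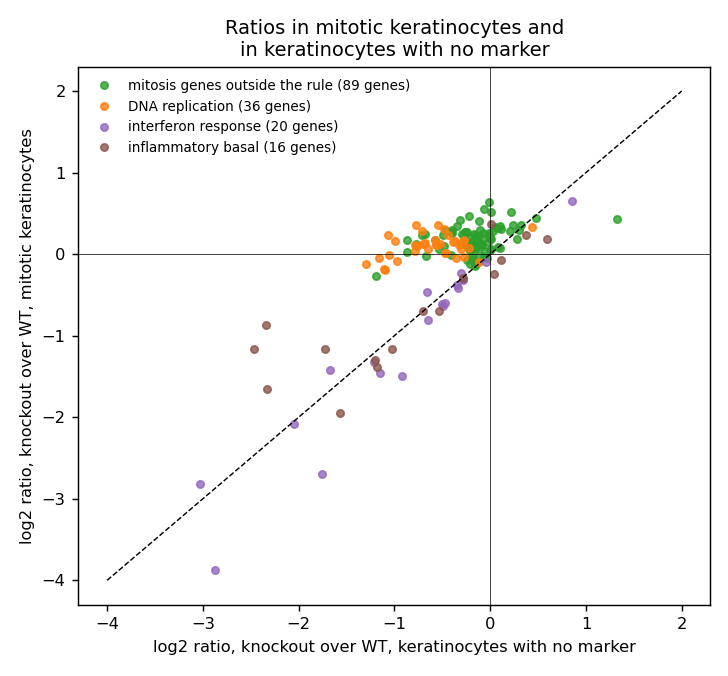
log2 ratio of knockout over WT in mitotic keratinocytes (y axis) against that in keratinocytes without a marker (x axis), 1 point per gene measured in both, for 4 gene groups; the dashed line marks equal ratios. Above the line lie 83 of 89 mitosis genes and 35 of 36 DNA replication genes, and 4 of 20 interferon and 6 of 16 inflammatory genes.

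Among single genes, Ptk2 had the best-counted difference of the 12 highest. Ptk2 (chr15:73205102-73423280, minus strand, mm10) encodes focal adhesion kinase, which signals from integrins at the cell's contact with its matrix. It had 3036 UMIs or 69.4 CPM in knockout mitotic keratinocytes and 1013 UMIs or 24.5 CPM in WT ones, a ratio of 2.83 (2.63 to 3.04). In marker-free keratinocytes Ptk2 had 57.5 CPM in the knockout and 23.8 CPM in WT (ratio 2.42). The other 13 measured focal adhesion genes stayed within 1.5-fold, down to Zyx, zyxin, at 0.671.

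The remaining highest genes were sparsely counted or held by few cells. Wdfy1, an endosomal protein gene, had 288 UMIs in the knockout and 68 in WT, a ratio of 4.0 (3.06 to 5.28), and the same ratio of 4.0 in marker-free keratinocytes. Nrn1, which encodes neuritin, had 160 UMIs in the knockout and 39 in WT (ratio 3.87). Rab4a, a small GTPase of endosome recycling, had 160 and 44 UMIs in knockout and WT cells (ratio 3.43). Mesp2, a transcription factor known from somite formation, had 273 UMIs in the knockout and 84 in WT (ratio 3.07). Nek3, a kinase of the NIMA family, had 108 UMIs in the knockout and 38 in WT, a ratio of 2.68 (1.84 to 3.99), and in marker-free keratinocytes a ratio of 1.34 (0.861 to 2.09).

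Some of the 12 rested on very few cells. Ccer2 had 867 UMIs in the knockout and 1 in WT, a ratio of 818 (146 to 32348), but 862 of the 867 lay in 1 cell. The matrix protein genes Hmcn2 and Ogn had 90 UMIs each in the knockout, and 27 and 28 in WT, with 68.9% and 77.8% of the knockout UMIs in 5 cells. Without cells of doublet score 0.25 or more, the log2 ratios of Ccer2, Hmcn2 and Ogn were 0.64, 0.17 and 0.0071, against 9.68, 1.65 and 1.60 with them. Tmie and Gsta2, with 78 and 84 UMIs in the knockout and 26 and 29 in WT, complete the 12 highest with Krt6b.

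The 12 lowest held interferon-response genes, pigment cell genes and Mid1. Mid1 (chrX:169685199-170005736, plus strand, mm10) encodes a ubiquitin ligase that sits on microtubules. It had 134 UMIs or 3.06 CPM in knockout mitotic keratinocytes and 855 UMIs or 20.7 CPM in WT ones, a ratio of 0.148 (0.122 to 0.178), and 0.121 in marker-free keratinocytes. Rtp4, Ifi27l2a, Lgals3bp and Apol9b had ratios between 0.0681 and 0.159. Ptgds, Npy, Mlana, Slc45a2, Tyrp1, Trpm1 and Ednrb had ratios between 0.0774 and 0.158.

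These 7 genes moved with markers of another cell type. In WT mitotic keratinocytes 5 cells held 73.8% of the UMIs of Mlana, a melanosome protein gene, and 72.4% of those of Tyrp1, an enzyme of melanin synthesis. The 10 melanocyte markers summed to 48.6 CPM in knockout and 209.7 CPM in WT mitotic keratinocytes, with all 10 found in both. They took 0.5% or more of the UMIs in 1 knockout and 7 WT mitotic keratinocytes. When cells with this much of another cell type's markers were left out, the log2 ratio was -1.40 for Mlana and -0.86 for Npy, against -3.28 and -3.36 with them. Without these cells it was -1.98 for Ptgds, -1.90 for Slc45a2, -1.31 for Tyrp1, -1.28 for Trpm1 and -1.14 for Ednrb. All 7 ratios stayed past 1.5-fold lower in the knockout. In marker-free keratinocytes the ratio was 0.291 for Mlana and 0.380 for Tyrp1. Below the keratin threshold, cells rich in melanocyte markers numbered 89 in the knockout and 181 in WT. Free RNA was not subtracted together with leaving cells out, so its part in the remaining ratios was not tested. For Ifi27l2a the log2 ratio was -2.82 with the marker-rich cells left out and -2.81 with them kept, and for Nppb -2.14 and -2.13.

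Markers of other cell types also differed between the libraries. The 10 T and innate lymphoid markers summed to 54.8 CPM in knockout and 83.7 CPM in WT mitotic keratinocytes, with 5 of 8 measured ones lower in the knockout. The 10 fibroblast and papilla markers summed to 131 CPM in the knockout and 96.9 CPM in WT, with 4 of 10 higher. Over all measured genes 1.95% were higher and 4.5% lower past 1.5-fold. Col1a2, with the highest ratio of the 10, had 17.5 CPM in the knockout and 7.77 CPM in WT. In the knockout 1 cell held 64.9% of its UMIs. Without cells rich in another cell type's markers the log2 ratio of Col1a2 was 0.45, against 1.17 with them. The 10 Langerhans and myeloid markers summed to 908 CPM in the knockout and 903 CPM in WT, of which Cst3, a protease inhibitor that keratinocytes also express, gave 641 and 595 CPM and Epcam 248 and 247 CPM. The other 5 of 7 measured ones, which are MHC genes and Cd74, the MHC class II invariant chain, were lower in the knockout, from Cd74 at 2.65 CPM in the knockout and 14.2 CPM in WT (ratio 0.186) to H2-Eb1 at 5.05 and 9.49 CPM (ratio 0.532). In WT 1 cell held 43.2% of the Cd74 UMIs, and 5 cells held 68.5%. Without cells rich in another cell type's markers the log2 ratio of Cd74 was -1.09, against -2.43 with them. The 8 endothelial and pericyte markers summed to 11.1 CPM in the knockout and 26.5 CPM in WT. Tagln and Acta2, genes of the contractile machinery, had ratios of 0.389 and 0.405 with 4.0 and 5.58 CPM in the knockout and 10.3 and 13.8 CPM in WT, while the endothelial genes Cdh5 and Cldn5 were at 0 in both libraries. For Tagln, 5 cells held 84.6% of the UMIs in the knockout and 84.2% in WT. The part of other cell types in the ratios above was not tested beyond leaving out the cells rich in their markers.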

How the data were processed

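Single-cell RNA was counted in 2 libraries, 1 per genotype, so no test across samples was possible and no p-value or standard error was made from cells. The authors deposited raw whole UMI counts per gene and barcode, per the file headers. The submitters' processing notes name Cell Ranger 3.0.2, Seurat 3.0 without a role, and mm10, while the matrix header carries software version 3.1.0. Filters before deposit are not stated there.

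Counts were read with scipy 1.17.1, numpy 2.4.6 and pandas 2.3.3. They were summed over the mitotic keratinocytes of each library and scaled to 1000000 (CPM), and ratios are knockout CPM over WT CPM. Ratios carry exact conditional binomial intervals, shares exact Clopper-Pearson intervals and levels exact Poisson intervals. PCR copies collapse to 1 UMI, but cells of 1 library share their source, so intervals cover counting error only. A gene with 100 UMIs or more in both sums together was measured, and higher or lower means past 1.5-fold with no test. Marker-free keratinocytes hold 0 of the 8 markers. Doublets were scored with Scrublet in scanpy 1.11.5 at an assumed rate of 0.08 and were not removed. The caller's own thresholds, 0.454 for the knockout and 0.668 for WT, marked 1.19% and 0.0295% of cells, so the caller had not worked for WT, and a common score of 0.25 was used as an alternative.

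The members and all gene lists were chosen with earlier results of these data known. Named genes are the 8 markers, the 12 highest and 12 lowest ratios without genes named by number, the highest and lowest gene of each list, Chrna5, Ptk2, and the 10 genes outside the rule with the highest ratio of mitotic over marker-free keratinocytes. Genes named beyond these were taken from the lists after their values were seen. Gene coordinates are from GENCODE vM21 on GRCm38 (mm10), and promoter windows from RefSeq on GRCm38.p6, matched by symbol. The sums and ratios were checked on simulated counts. Alternatives were doublet scores, cell filters, marker numbers, the keratin threshold, thinning, shared barcodes, scaling by TMM (edgeR 4.0.16) or median of ratios, means over cells, UMI minimums and subtraction of free RNA.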

Additional observations from a re-analysis of the deposited data

Results flagged for a closer look

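Outside the keratinocytes, 4 or more of the 8 markers were also found in cells below the keratin threshold that carried T and innate lymphoid markers. There they were seen in 23 of 523 knockout cells, 4.4% (2.81 to 6.53), and in 7 of 544 WT cells, 1.29% (0.519 to 2.63). After thinning to 2000 UMIs the shares were 2.84% of 388 knockout cells and 0.504% of 397 WT cells. Among the cell classes below the keratin threshold, this was the only one whose knockout interval lay above the WT interval. It was picked for that, and classes lower in the knockout were not looked for. The intervals cover counting error over cells only. Over all cells below the keratin threshold the order was the other way, with 3.87% (3.16 to 4.7) of 2555 knockout and 5.15% (4.39 to 5.99) of 3050 WT cells, and in cells of no class it was 4.47% in the knockout and 6.60% in WT. The median depth of these cells was 2967 UMIs in the knockout and 2798.5 in WT. With 1 library per genotype there is no replicate check.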

How the results depend on the processing

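No paired analysis was possible because the labels give no replicate numbers and there is 1 library per genotype. The ratio of mitotic shares was above 1 under each of the 11 alternative filters, rules and thinnings it was computed for, while cells with 4 to 7 markers taken alone were 11.6% of knockout and 13.2% of WT keratinocytes. It was 1.22 with Krt5 and Krt14 at 2% of UMIs or more, 1.68 after thinning to 2000 and 1.30 after thinning to 5000 UMIs. Genes past 1.5-fold numbered 96 higher and 132 lower after thinning to 2000 UMIs, where 3549 genes were measured, and 140 and 285 after thinning to 5000. They numbered 580 and 1056 with a minimum of 20 UMIs, 103 and 292 with 300, and 318 were lower in cells with 4 to 7 markers. The median log2 ratio of the mitosis genes, 0.20, stayed above 0 under every alternative run. It was 0.22 with at least 3 markers, 0.18 with at least 5, 0.19 without Cenpf in the rule and 0.19 at 2% keratin. It was 0.15 and 0.14 after thinning to 2000 and 5000 UMIs, 0.23 with TMM, 0.24 with median of ratios and 0.21 as a mean over cells. With all 8 markers it was 0.15, and with 4 to 7 markers 0.11. TMM and median of ratios shifted all log2 ratios by 0.024 and 0.038. The alternatives on marker number, other cell types' markers and the summed mitosis genes were chosen after seeing the data.

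Of the 52 named genes past 1.5-fold, 7 had a log2 ratio of the other sign under an alternative, in 9 values. For named genes these values were computed without the minimum of 100 UMIs, and a count of 0 was set to 3. The 6 values after thinning to 2000 UMIs rest on few UMIs and are not read as a change of direction. After thinning to 2000 UMIs the log2 ratio was -1.27 for Hmcn2, -2.27 for Tmie, -0.68 for Gsta2, -0.39 for Col1a2, 0.32 for Cnfn and 0.32 for Gpnmb. With keratins at 2% it was -0.17 for Ccer2 and -0.11 for Hmcn2, and in cells with 4 to 7 markers it was -1.20 for Col1a2. Of the 45 named genes within 1.5-fold, 20 changed sign under at least 1 alternative, in 42 of 810 values. For example, after thinning to 2000 UMIs the log2 ratio was 0.49 for Mcm3, 0.32 for Mybl2 and -0.29 for Kif14, and in cells with 4 to 7 markers -0.17 for Cdc20. The cause was not tested.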

Other observations

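Differences in hair follicle and basal keratins also showed in single mitotic keratinocytes. Krt15 took 0.5% or more of the UMIs in 17.2% (15.5 to 18.9) of knockout and 8.34% (7.11 to 9.71) of WT mitotic keratinocytes. Krt17 did so in 1.02% (0.624 to 1.57) of knockout and 2.31% (1.67 to 3.1) of WT mitotic keratinocytes. In marker-free keratinocytes Krt15 reached this level in 22.2% of the knockout and 11.5% of WT, and Krt17 in 1.73% and 8.62%. These classes are ranges of a level, and 829 knockout and 572 WT mitotic keratinocytes lay between 0.25 and 1% of UMIs for Krt15.

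Among 14 spinous genes in mitotic keratinocytes, Krt77, a suprabasal and sweat duct keratin, had 76.3 CPM in the knockout and 179 CPM in WT (ratio 0.426). Mt4, a metallothionein of stratified epithelia, had 122 CPM in the knockout and 58.9 CPM in WT (ratio 2.08). Them5, a thioesterase gene, had 14.2 CPM in the knockout and 6.47 CPM in WT (ratio 2.19). Krt10 had 679 CPM in the knockout and 645 CPM in WT (ratio 1.05). Heat shock genes had 0 of 12 past 1.5-fold in either direction, and of 20 immediate early genes Egr3 alone was past it, with 103 CPM in the knockout and 179.7 CPM in WT. Odc1, the rate-limiting enzyme of polyamine synthesis, was the only one of 12 ribosome and growth genes past it, with 180.0 CPM in the knockout and 326 CPM in WT. None of these genes was tested, since there is 1 library per genotype. Over all genes measured in mitotic keratinocytes, 1.95% were higher and 4.5% lower past 1.5-fold.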
